A study of Mus musculus with 6 samples.

Results

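Chemokine transcripts were examined in induced T (iT) cells from mouse spleen. The genes were the 8 rows of the expression table named Ccl1, Ccl3, Ccl4, Ccl5, Ccl8, Ccl9, Cxcl10 and Xcl1, chosen by name as chemokine ligands, out of 23420 rows in all. The 6 libraries held 3 samples of CD4 single-positive (CD4SP) and 3 of CD8 single-positive (CD8SP) iT cells, and each library was made from 1000 sorted cells. The cells in both populations descended from C57BL/6 pluripotent stem cells with a doxycycline-inducible Runx1-p2a-Hoxa9 cassette in the Rosa26 locus (iR9 cells, which carry the CD45.2 allele). Doxycycline was present while blood progenitors formed in culture, and the cells were then transplanted into irradiated recipients without it. The recipients were B-NDG mice (CD45.1), an immunodeficient strain without T, B and NK cells of its own, and B-NDG is also the strain the labels give. The sort took CD45.2+ cells, depleted of other blood lineages by surface markers, that were CD4+ or CD8+, with no CD3, T cell receptor or NK1.1 term. All samples carried the cassette, so no sample shows these genes without it. The study's figure legend calls each column a biological replicate, but no source ties a library to a particular mouse. If the replicates came from a single mouse, the p-values below measure only technical spread.

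Chemokines are small secreted proteins that guide leukocytes through G protein-coupled receptors. They are classed as CC, CXC, C or CX3C by the spacing of their first cysteines, and the gene prefixes Ccl, Cxcl, Xcl and Cx3cl follow these classes. Ccl3, Ccl4 and Ccl5 are inflammatory chemokines made by cytotoxic and memory T cells, and Ccl3 and Ccl5 act on Ccr1. Xcl1 acts on Xcr1 of cross-presenting dendritic cells, and Cxcl10 is induced by interferon and acts on Cxcr3. Ccl1 and mouse Ccl8 act on Ccr8, and Ccl9 acts on Ccr1.

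Values were TPM, a measure of transcript abundance scaled to a fixed total per library. TPM divides reads by transcript length, so levels of different genes can be set side by side. TPM keeps no sequencing depth, so no counting interval could be given, and a 0 is described as listed at 0 because it may be a failed estimate. Differences were fitted with limma on log2(TPM + 1) over the 10476 genes that reached 1 TPM in at least 3 libraries. A gene was called when its Benjamini-Hochberg adjusted p was under 0.05 and its difference over 2-fold, and negative log2 fold changes mean higher values in CD8SP. The libraries listed 9971 to 10649 genes at 1 TPM or more. Transcripts of 84 ribosomal protein genes took 24.1% to 28.7% of TPM in CD4SP against 32.1% to 35.9% in CD8SP libraries. Over all tested genes the log2 fold change had a median of 0.28, toward CD4SP, so a fold change near that value lies at the middle of the table. CD8 replicates 1 and 2 were the closest pair, with a median absolute log2 difference of 0.075 over 4884 genes, against 0.17 to 0.313 in the other pairs within a population. With these replicates averaged, 4 members were called, as without averaging.

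The labelled cell types were checked against their defining transcripts, which followed the labels. Cd4 lay between 279.2 and 331 TPM in CD4SP and at most at 0.104 TPM in CD8SP libraries. Cd8a lay between 1038 and 1161 TPM in CD8SP and at most at 2.93 TPM in CD4SP libraries. Cd8b1 lay between 2197 and 2401 TPM in CD8SP and, less near 0, between 24.3 and 36 TPM in CD4SP libraries. Cd3d, a subunit of the T cell receptor complex, lay between 979.4 and 1160 TPM in all 6.

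The chemokine transcripts were dominated by Ccl5 in both populations. Of the 7 members that passed the filter on low values, 4 were called, all of them higher in CD8SP: Ccl5, Ccl4, Ccl3 and Xcl1. By comparison, 1.8% of all tested genes were called higher in CD8SP and 9.73% in either direction. Cxcl10, Ccl1 and Ccl8 were not called, although 7.92% of all tested genes were called higher in CD4SP. An unadjusted p under 0.05 (limma) was reached by the 4 called members and by no member toward CD4SP. In either direction, that is 4 of the 7 tested members against 37.1% of all tested genes. Ccl9 failed the filter and was not tested. The median log2 fold change of the 7 tested members was -1.61.

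The promoters of Xcl1 and Ccl3, both called higher in CD8SP, and of Cxcl10, which was not called, are shown to set their sequence motifs beside the levels. Each is the 250 bases before the RefSeq start on the minus strand of GRCm38.p6, written 5′ to 3′ along the gene. The windows are chr1:164935523-164935772 for Xcl1, chr11:83649379-83649628 for Ccl3 and chr5:92348890-92349139 for Cxcl10. Capitals mark matches to the motifs searched, and position -1 is the base next to the start.
Xcl1: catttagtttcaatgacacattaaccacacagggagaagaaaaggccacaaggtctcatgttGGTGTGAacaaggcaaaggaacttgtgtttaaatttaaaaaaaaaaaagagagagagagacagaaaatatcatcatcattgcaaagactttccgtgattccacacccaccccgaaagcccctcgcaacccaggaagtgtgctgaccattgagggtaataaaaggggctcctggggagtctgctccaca
Ccl3: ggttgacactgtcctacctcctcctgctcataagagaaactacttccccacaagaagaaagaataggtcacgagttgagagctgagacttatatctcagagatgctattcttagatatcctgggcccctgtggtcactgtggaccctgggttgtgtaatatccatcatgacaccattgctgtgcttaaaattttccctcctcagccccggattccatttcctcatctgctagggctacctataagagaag
Cxcl10: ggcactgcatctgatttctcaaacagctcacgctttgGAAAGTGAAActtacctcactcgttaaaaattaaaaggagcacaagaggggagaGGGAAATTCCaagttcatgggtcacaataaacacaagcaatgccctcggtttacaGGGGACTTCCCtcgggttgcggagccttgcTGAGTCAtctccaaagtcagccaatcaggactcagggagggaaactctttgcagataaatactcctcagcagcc
In this set, 6 of the 8 members had a RefSeq promoter, and Ccl4 and Ccl5 had none. The motifs, searched on both strands, were NF-kB (GGGNNNNNCC), the interferon-stimulated response element or ISRE (GAAANNGAAA), AP-1 (TGANTCA), the T-box (GGTGTGA) and the TATA box (TATAAA). Overlapping matches are run together in the capitals. The Xcl1 window held a T-box from -188 to -182, a motif found in 3.33% of 32851 promoters of this length. The Cxcl10 window held an ISRE from -213 to -204, found in 2.98% of promoters, and an AP-1 match from -74 to -68, found in 6.75%. Among the members, the Ccl9 window held the AP-1 letters too. The Cxcl10 window also held NF-kB matches from -159 to -150 and, overlapping each other, from -104 to -94. The NF-kB letters are common, since 45.8% of promoters held them, and among the members Ccl1 and Ccl9 did too. The TATA box stood in the Ccl8 and Ccl9 windows and in 12.4% of promoters. The Ccl3 window held none of these letters. The matches describe sequence only, and binding was not measured.

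Of the 4 ligands called higher in CD8SP, 3 were CC chemokines and lie close together on chromosome 11. Ccl5, also called RANTES, lies at chr11:83525778-83530518 on the minus strand (GENCODE M21, GRCm38, the same assembly as mm10). Its levels were 1773, 1783 and 1343 TPM in CD4SP replicates 1 to 3 and 8911, 8618 and 8882 TPM in CD8SP replicates 1 to 3. No library of CD4SP came near the CD8SP range, and the lowest CD8SP library stood 4.83-fold above the highest CD4SP library. The means were 1633 ± 251 TPM and 8804 ± 161 TPM (SD, n = 3 each), a 5.39-fold ratio. On the log2(TPM + 1) scale the difference was -2.44 (SE 0.128, 95% interval -2.73 to -2.15, adjusted p = 1.41e-05 by limma). Ccl5 ranked 7th, 9th and 10th among all genes of the CD8SP libraries and 96th, 100th and 116th in the CD4SP libraries. The call held in all 17 alternative analyses, with fold changes from -2.75 to -2.31. Ccl5 supplied 0.864% to 0.893% of all TPM in CD8SP and 0.135% to 0.179% in CD4SP.

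Ccl4, also called MIP-1β, lies at chr11:83662584-83664683 on the plus strand. It stood at 87.1, 104.3 and 73.0 TPM in CD4SP and at 278, 254.4 and 271.7 TPM in CD8SP replicates 1 to 3. The CD8SP libraries were again all above the CD4SP libraries, by 2.44-fold where the populations came closest. The means were 88.1 ± 15.7 and 268 ± 12.2 TPM (SD, n = 3 each), and the log2 fold change was -1.61 (SE 0.146, 95% interval -1.94 to -1.27, adjusted p = 0.000261 by limma). This call also held in all 17 alternatives (-1.91 to -1.48). Although Ccl4 was second to Ccl5 by mean level in both populations, the distance was wide. Ccl5 exceeded Ccl4 by 17.1- to 20.4-fold in CD4SP and by 32.1- to 33.9-fold in CD8SP libraries, without overlap.

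Ccl3, or MIP-1α, lies at chr11:83647844-83649355 on the minus strand, 13228 bp from Ccl4. Its levels were 18.0, 4.26 and 13.4 TPM in CD4SP against 48.6, 35.1 and 41.3 TPM in CD8SP replicates 1 to 3. CD4 replicate 2 was lowest, and the populations did not overlap, with 1.96-fold between the nearest libraries. The means were 11.9 ± 6.97 and 41.7 ± 6.74 TPM (SD, n = 3 each), and the log2 fold change was -1.91 (SE 0.422, 95% interval -2.87 to -0.94, adjusted p = 0.0159 by limma). This call was lost without CD8 replicate 3, where the fold change was -1.91 and the adjusted p 0.0576 (limma), and the fold change shrank to -1.36 without CD4 replicate 2. Ccl3 and Ccl4 did not keep a fixed ratio: Ccl4 exceeded Ccl3 by 4.85- to 7.24-fold in 5 libraries and by 24.5-fold in CD4 replicate 2.

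Other genes of this stretch of chromosome 11 were at low levels. Taf15, on the side of Ccl5 away from Ccl9, lay between 0.931 and 2.45 TPM with an adjusted p of 0.63 (limma). Ccl6, between Ccl9 and Ccl3, did not exceed 2.44 TPM, and Wfdc18, beyond Ccl4, was listed at 0 in all 6 libraries. The longest annotated transcript of each member had no copy with at least 95% identity over 200 nt among transcripts of other genes. Shorter transcripts of the members were not searched. How reads were shared out between genes was not tested.

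Xcl1, or lymphotactin, is the C-class member and lies apart at chr1:164931644-164935527 on the minus strand. Its levels were 17.0, 39.7 and 36.4 TPM in CD4SP against 136.2, 142.8 and 67.8 TPM in CD8SP replicates 1 to 3. CD4 replicate 1 and CD8 replicate 3 were the low libraries of their populations, and CD8 replicate 3 still stood 1.71-fold above the highest CD4SP library. The means were 31.0 ± 12.3 and 115.6 ± 41.5 TPM (SD, n = 3 each), a 3.73-fold ratio, and the log2 fold change was -1.88 (SE 0.369, 95% interval -2.72 to -1.03, adjusted p = 0.00972 by limma). The call held in all 17 alternative analyses, with a highest adjusted p of 0.0311 (limma). The gene Gm20743 overlaps Xcl1 on the opposite strand and was listed at 0 in all 6 libraries.

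**Figure D1:**
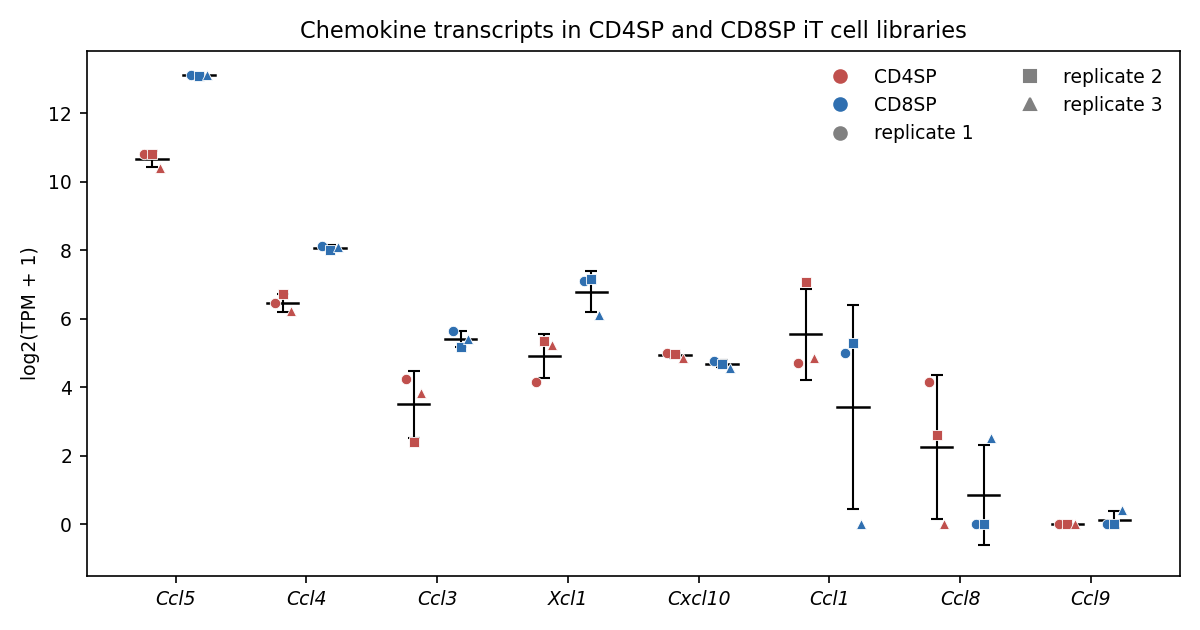
Levels of the 8 chemokine transcripts by library, as log2(TPM + 1), with CD4SP in red and CD8SP in blue; marker shapes give the replicate, and bars show the mean and SD over 3 libraries. Ccl5, Ccl4, Ccl3 and Xcl1 show separate populations with CD8SP above, and Ccl1 and Ccl8 each include libraries at 0.

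Cxcl10, or IP-10, lies at chr5:92346638-92348889 on the minus strand and was nearly level between the populations. It stood at 30.9, 30.1 and 27.8 TPM in CD4SP and at 26.4, 24.7 and 22.8 TPM in CD8SP replicates 1 to 3. The CD4SP libraries all lay above the CD8SP libraries, which held for 36.6% of all tested genes in that direction, and the nearest libraries were 1.05-fold apart. The log2 fold change was 0.26 (SE 0.146, 95% interval -0.08 to 0.59, adjusted p = 0.235 by limma). That is -0.03 relative to the median of all genes, and the sign turned when the libraries were rescaled by median-of-ratios (-0.04) or quantile normalization (-0.05). Art3, which overlaps Cxcl10 on the opposite strand, did not exceed 0.424 TPM. In the other direction, CD8SP libraries all lay above CD4SP libraries in 4 of the 7 tested members, against 6.61% of all tested genes.

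The ligands of Ccr8 varied most between libraries of the same population. Ccl1, annotated at chr11:82176657-82305690 on the minus strand, stood at 25.1, 134.2 and 27.6 TPM in CD4SP and at 31.0, 37.9 and 0 TPM in CD8SP replicates 1 to 3. The populations overlapped, with a single high CD4SP library and a single CD8SP library listed at 0. The log2 fold change was 2.11 (SE 1.3, 95% interval -0.85 to 5.08, adjusted p = 0.27 by limma). Over the alternatives it ranged from 0.23 with library weights to 3.21 with a pseudocount of 0.1 TPM, and was 0.40 without CD8 replicate 3. The annotated gene has 3 transcripts, the longest with 11 exons, and the transcript lengths behind its TPM are not given in the sources used here. Ccl8, or MCP-2, lies on the plus strand at chr11:82115185-82116799, 59857 bp from Ccl1. It was listed at 16.8, 5.07 and 0 TPM in CD4SP and at 0, 0 and 4.75 TPM in CD8SP replicates 1 to 3. Both populations thus held libraries at 0 and above 4 TPM, and the log2 fold change of 1.41 (SE 1.04, 95% interval -0.97 to 3.79, adjusted p = 0.352 by limma) did not exceed the spread between replicates. It ranged from 0.99 to 2.54 over the alternatives, the highest without CD4 replicate 3 (adjusted p = 0.0969 by limma). Ccl9, at chr11:83572919-83578636 on the minus strand, was listed at 0 in 5 libraries and at 0.334 TPM in CD8 replicate 3.

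**Figure D2:**
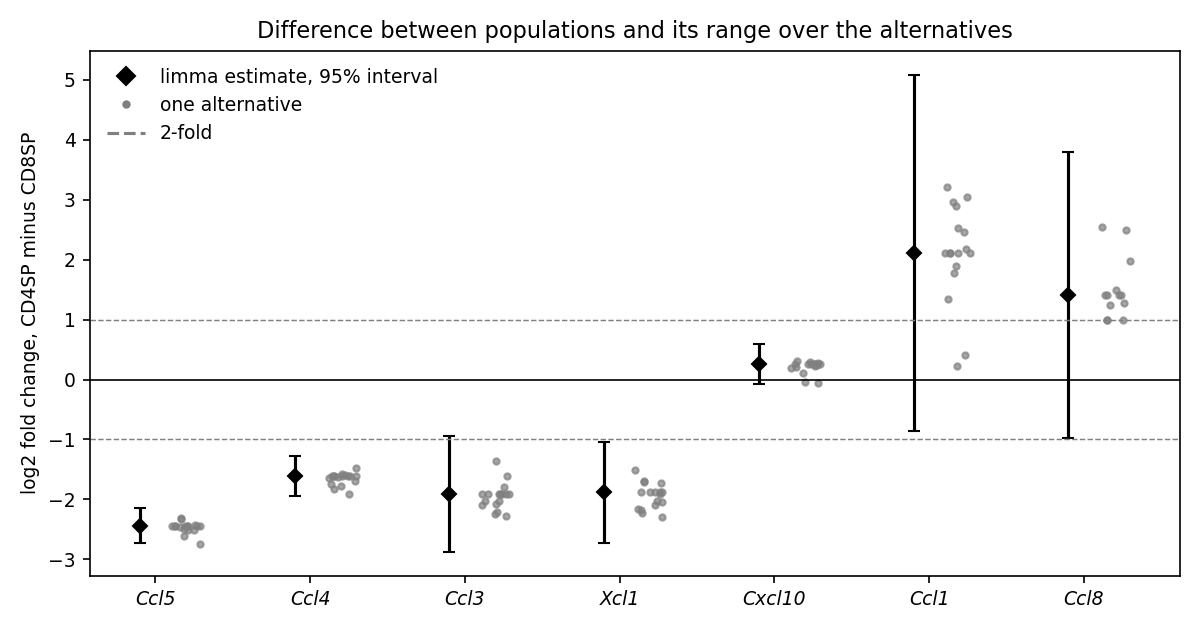
Log2 fold change (CD4SP minus CD8SP, on log2(TPM + 1)) of the 7 tested chemokines, with black diamonds for the limma estimate, bars for its 95% interval and grey points for each alternative analysis; dashed lines mark 2-fold. Ccl5, Ccl4, Ccl3 and Xcl1 stay below the lower dashed line in every alternative drawn, Cxcl10 lies at 0.26 with 2 alternatives below 0, and the interval of Ccl1 runs from -0.85 to 5.08.

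The order of the levels also differed. By mean TPM it was Ccl5, Ccl4, Ccl1, Xcl1, Cxcl10, Ccl3, Ccl8 and Ccl9 in CD4SP. Only Ccl5 and Ccl4, and Cxcl10 and Ccl3, were neighbours in this order with separate ranges. In CD8SP the order was Ccl5, Ccl4, Xcl1, Ccl3, Cxcl10, Ccl1, Ccl8 and Ccl9. Here each of the first 4 genes had a range wholly above that of its next neighbour, and the ranges from Cxcl10 downward overlapped. The 8 transcripts summed to 1521 to 2101 TPM in CD4SP and to 9113 to 9432 TPM in CD8SP libraries. Ccl5 made up 84.9% to 90.1% of that sum in CD4SP and 94.5% to 95.6% in CD8SP. Without Ccl5 the sums were 178.3 to 317.8 TPM and 408.7 to 520.2 TPM, so the CD8SP libraries were still all higher. Of the remainder Ccl4 took 32.8% to 44.7% in CD4SP and 51.4% to 66.5% in CD8SP, while Cxcl10 took 9.48% to 15.9% and 4.998% to 5.58%. Ccl1 took 42.3% of the remainder in CD4 replicate 2 and at most 15.5% in any other library.

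**Figure D3:**
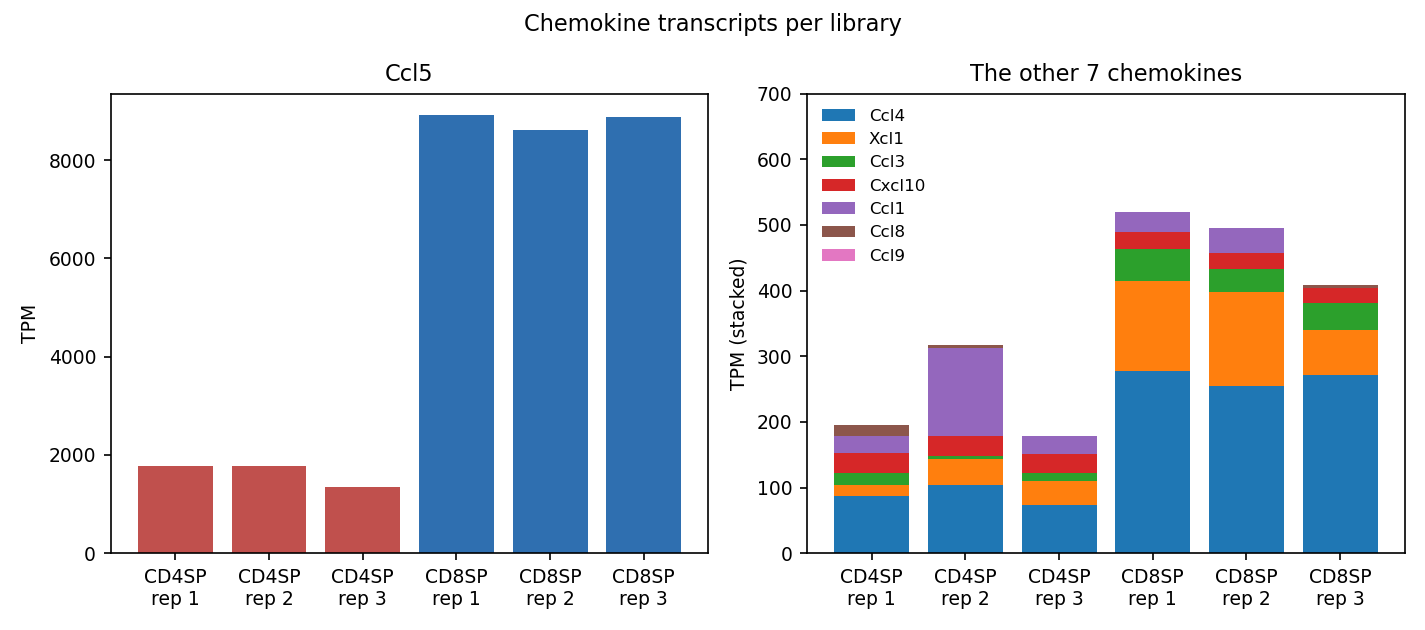
TPM of Ccl5 in each library (left) and stacked TPM of the other 7 chemokines (right, on its own scale). Ccl5 lies between 1343 and 1783 TPM in CD4SP and between 8618 and 8911 TPM in CD8SP; Ccl4 is the largest block on the right except in CD4 replicate 2, where Ccl1 is.

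Few other chemokine ligands were seen. Of 33 further ligands listed, 32 had a row, 18 were at 0 in all 6 libraries and 3 passed the filter. The ones at 0 included Cxcl9 and Cxcl11, which share the receptor Cxcr3 with Cxcl10. All further ligands together summed to 16.1 to 32.8 TPM in CD4SP against 4.89 to 11.8 TPM in CD8SP libraries. Only Ccl25, the ligand of Ccr9 that is made by thymic and gut epithelium, was called, higher in CD4SP (7.92% of all tested genes). It stood at 9.19, 20.5 and 9.69 TPM in CD4SP and at 3.88, 1.37 and 5.02 TPM in CD8SP replicates 1 to 3, and the populations did not overlap. The log2 fold change was 1.69 (SE 0.414, adjusted p = 0.0239 by limma). The call was made in 12 of 16 alternatives and lost under rescaling by median-of-ratios (adjusted p = 0.0803) or quantile normalization (0.108), without CD4 replicate 3 (0.0507) and without CD8 replicate 2 (0.0608), all by limma. Ccl6, which acts on Ccr1, and Ccl27a, a skin chemokine, were tested and not called.

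The receptors of these chemokines were measured in the same libraries. Of 6 receptors listed, 5 had a row and were tested, and 1 was called, higher in CD4SP, as were 7.92% of all tested genes. Ccr8, the receptor of Ccl1 and Ccl8, stood at 43.7, 35.7 and 43.4 TPM in CD4SP and at 0.841, 1.18 and 0.933 TPM in CD8SP replicates 1 to 3. The ratio of means was 41.5 and the log2 fold change 4.40 (SE 0.199, adjusted p = 6.43e-06 by limma), and the call held in 16 of 16 alternatives. It was much the largest difference of the ligands and receptors reported here, while its ligand Ccl1 did not separate the populations.

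Cxcr3, the receptor of Cxcl10, was the most abundant of these receptors, with 530.8, 434.9 and 539.3 TPM in CD4SP against 515.6, 511.9 and 428.3 TPM in CD8SP. Its populations overlapped, and its log2 fold change of 0.05 (SE 0.13, adjusted p = 0.818 by limma) ranged from -0.26 to 0.15 over the alternatives. Xcr1, the receptor of Xcl1, lay between 2.52 and 6.20 TPM with overlapping populations and was not called. Ccr1 and Ccr3 did not exceed 2.78 TPM and were not called, and Ccr1 passed the filter only through its CD4SP libraries.

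**Figure D4:**
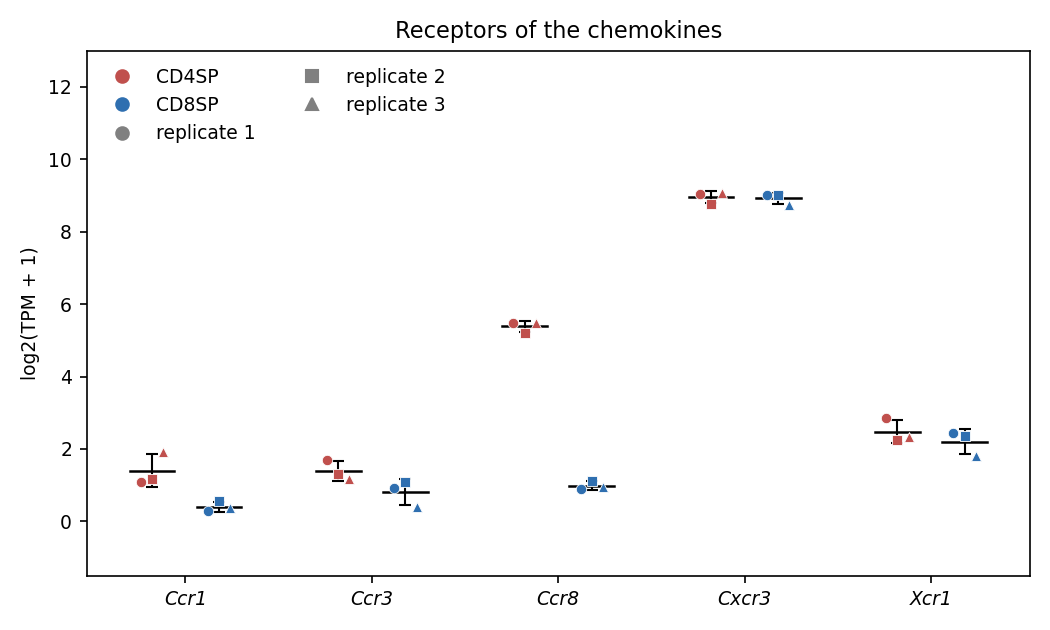
Levels of 5 receptors of these chemokines by library, as log2(TPM + 1), with CD4SP in red, CD8SP in blue, and the mean and SD over 3 libraries as bars. Ccr8 is 35.7 to 43.7 TPM in CD4SP and at most 1.18 TPM in CD8SP, and Cxcr3 is the highest receptor drawn in all 6 libraries.

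Downstream of these receptors, none of 9 tested signalling genes was called by limma, against 9.73% of all tested genes. At an unadjusted p under 0.05 there were 5 (37.1% of all tested genes), and 2 passed the adjusted p without reaching 2-fold (20.8% of all tested genes passed that p). The most abundant by mean over all 6 libraries were Rac2, a small GTPase of migrating leukocytes, at 1781 ± 82.6 TPM in CD4SP against 1655 ± 139 TPM in CD8SP (SD, n = 3 each), and the G protein subunits Gnai2 and Gnb1. Gnb1 had a log2 fold change of 0.64 toward CD4SP (SE 0.133, adjusted p = 0.0127 by limma).

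Among 9 transcription factors known to act on chemokine promoters, 2 were called higher in CD4SP (7.92% of all tested genes) and 1 in CD8SP (1.8%). Eomes, a T-box factor of cytotoxic T cells, was the one higher in CD8SP, at 10.6, 9.20 and 8.19 TPM in CD4SP against 51.4, 55.4 and 49.9 TPM in CD8SP replicates 1 to 3. The log2 fold change was -2.37 (SE 0.161, adjusted p = 5.52e-05 by limma). The related T-box factor Tbx21, named after its values were seen, overlapped between populations, at 8.23 to 12.5 TPM and 9.11 to 12.4 TPM. Nfkb1, an NF-kB subunit, was higher in CD4SP (log2 fold change 1.38, SE 0.183, adjusted p = 0.00174 by limma), as was Nfatc1, a factor activated by calcium signalling (1.37, SE 0.275, adjusted p = 0.0106). Irf1 and Rela, the most abundant of the list by mean over all 6 libraries, were not called.

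Cytokines that activated T cells release were measured as well. Of 7 listed, 5 were tested and 2 were called, both higher in CD4SP, the direction of 7.92% of all tested genes against 1.8% for CD8SP. Lta, lymphotoxin alpha, stood at 80.9, 78.0 and 82.9 TPM in CD4SP and at 24.8, 28.0 and 15.5 TPM in CD8SP (log2 fold change 1.82, SE 0.212, adjusted p = 0.000946 by limma). Il2, a T cell growth factor, stood at 10.97, 17.7 and 11.1 TPM in CD4SP and at 3.45, 3.37 and 1.02 TPM in CD8SP (log2 fold change 2.03, SE 0.354, adjusted p = 0.00593 by limma). Ifng, which encodes interferon gamma, was 67.6 ± 4.96 TPM in CD4SP against 81.7 ± 2.99 TPM in CD8SP (SD, n = 3 each). Its CD8SP libraries, at 78.2 to 83.5 TPM, all lay above its CD4SP libraries, at 62.3 to 72.1 TPM, but it was not called (adjusted p = 0.144 by limma). Fasl, a death ligand, overlapped and was not called.

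Of 12 interferon-induced genes, the class that also holds Cxcl10, 2 were called higher in CD4SP (7.92% of all tested genes), 1 in CD8SP (1.8%) and 9 were not called. The GTPases Iigp1 (log2 fold change 2.92, SE 0.168, adjusted p = 2.37e-05 by limma) and Igtp (1.23, SE 0.136, adjusted p = 0.000734) were those higher in CD4SP, and Igtp fell to 0.92 with median-of-ratios rescaling. Ifit3 was higher in CD8SP (-1.39, SE 0.343, adjusted p = 0.0247 by limma), a call lost in 6 of 16 alternatives. The list as a whole had a median log2 fold change of 0.30, close to that of all genes. Gbp2 and Gbp4, the most abundant besides Igtp by mean over all 6 libraries, were not called.

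The genes with the most similar profiles over the 6 libraries were found by root mean square distance of log2(TPM + 1), centred on each gene's mean. For Ccl5 they were Eomes (distance 0.104), the NK receptor gene Klrd1 (0.156) and 1700025G04Rik (0.207). Klrd1 stood at 79.4, 84.1 and 83.4 TPM in CD4SP and at 439.5, 411.1 and 475.8 TPM in CD8SP. For Ccl4 they were Art4 (0.12), Amica1 (0.142) and Dmrta1 (0.165), and for Xcl1 they were Ifitm10 (0.319), Fn3k (0.397) and Cd244 (0.398). Dmrta1 stood at most at 0.49 TPM in CD4SP and at 1.71 to 2.28 TPM in CD8SP. Fn3k was listed at 0 in CD4SP and at 1.07 to 2.95 TPM in CD8SP. Both passed the filter only through their CD8SP libraries, and at such levels the added 1 TPM shapes the distance. Ccl3 lay nearest to Sepn1 (0.228), 3300005D01Rik (0.258) and Fam71b (0.267), all with their lowest value in CD4 replicate 2. Cxcl10 lay nearest to Dvl1 (0.0365), Psme2 (0.0395) and Cux1 (0.0401). The nearest genes to Ccl1 lay farther away and were Dynlt1a (0.725), Gstp2 (0.917) and Bphl (0.954), each listed at 0 in CD8 replicate 3 as Ccl1 was. Genes were picked by this likeness, so the low library they share with Ccl3 or Ccl1 follows from the choice.

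Transcripts of other cells that make chemokines were looked for in the same libraries. In these samples of 1000 cells, fewer cells of a type and less RNA per cell cannot be told apart. The 5 NK cell markers summed to 11.95 to 19.6 TPM in CD4SP against 53.4 to 62.8 TPM in CD8SP, and so moved with Ccl5, Ccl4, Ccl3 and Xcl1. In CD8SP most of this sum was Klre1, at 37.2 to 46.2 TPM. Of these markers Klre1 and Klrb1c were called higher in CD8SP (1.8% of all tested genes), Tyrobp was not called, and Ncr1, which marks NK cells, and Klra8, which a subset of them carries, were listed at 0 in all 6 libraries. The 7 myeloid markers with a row summed to 17.7 to 32.7 TPM in CD4SP against 20.9 to 24.6 TPM in CD8SP, overlapping, with S100a8 and S100a9 at 0. The 2 myeloid markers tested were called in opposite directions. Cd68, a lysosomal protein of macrophages, was higher in CD8SP, with the called chemokines, at 13.5 to 17.5 TPM against 0.596 to 6.59 TPM in CD4SP (log2 fold change -2.41, SE 0.505, adjusted p = 0.0127 by limma), a call lost without CD8 replicate 3 (adjusted p = 0.0539). Lyz2, a lysozyme gene of myeloid cells, was higher in CD4SP, at 17.1 to 30.9 TPM against 3.64 to 8.33 TPM (1.68, SE 0.321, adjusted p = 0.00872 by limma). The 4 dendritic cell markers summed to 0 to 1.42 TPM in CD4SP against 17.5 to 18.5 TPM in CD8SP, nearly all of it Itgax, with Clec9a at 0. B cell markers summed to 1.52 to 3.56 TPM with Ms4a1 and Pax5 at 0, platelet markers to at most 1.70 TPM, and stromal and endothelial markers to 1.45 to 6.41 TPM. The part of these cells in the chemokine levels was not tested.

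Of the 4 regulatory T cell markers, 3 differed between populations in the direction of Ccr8, in which 7.92% of all tested genes were called. The 4 summed to 948.4 to 1235 TPM in CD4SP against 145.2 to 171.4 TPM in CD8SP, and Il2ra, Ctla4 and Ikzf2 were called higher in CD4SP. Most of each sum was Ctla4, at 814.3 to 937.5 TPM in CD4SP and 124.1 to 149.6 TPM in CD8SP. Foxp3, the factor that defines regulatory T cells, stood at 141.6, 6.56 and 167.2 TPM in CD4SP replicates 1 to 3 and 7.48, 7.48 and 10.1 TPM in CD8SP. Its populations overlapped and it was not called. CD4 replicate 2, low in Foxp3, was the library highest in Ccl1 and lowest in Ccl3. Its Ccr8 level, 35.7 TPM, was the lowest of the CD4SP libraries and far above every CD8SP library. In CD4 replicate 2 the other regulatory T cell markers did not fall as Foxp3 did. Il2ra stood there at 92.0 TPM (95.7 and 82.1 in CD4 replicates 1 and 3), Ctla4 at 814.3 TPM (866 and 937.5) and Ikzf2 at 35.6 TPM (44.9 and 48.3). The part of regulatory T cells in these values was not tested.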

How the data were processed

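Polyadenylated RNA of 6 libraries was measured. The authors amplified cDNA, prepared transposase libraries, aligned reads to mm10 with HISAT2 and deposited StringTie estimates as TPM. Use of strand, treatment of duplicates and the annotation are not given in the sources used here. Groups and replicate numbers came from the sample titles.

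Rows with at least 1 TPM in at least 3 libraries were tested on log2(TPM + 1), a scale that understates changes of low genes. The comparison of populations used limma 3.58.1 (lmFit, eBayes with trend; R 4.3.3), with no covariate, and Benjamini-Hochberg adjustment over all tested genes, and was tested on simulated data. The 2-fold threshold follows the study. TPM are no counts, so no count model was run. The alternatives were other pseudocounts, filters, scalings, trend, weights, the replicate block, a threshold on adjusted p alone, removal of ribosomal protein genes, leaving out each library, and averaging CD8 replicates 1 and 2. Members and gene lists were chosen with earlier results of these data known. Every member was named, and of each ligand, receptor, signalling, regulator, cytokine and interferon list the called genes and the 3 of highest mean TPM over all libraries. Marker genes at 1 TPM or more in any library could be named. Some genes of these lists are not reported here and were left out of the list counts. Other genes named were chosen after their values were seen. Copies of the longest transcript of each member were searched with blastn 2.17.0 among GENCODE M21 transcripts.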

Additional observations from a re-analysis of the deposited data

How the results depend on the processing

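Of the members, 4 were called in the alternatives of scaling, filter, pseudocount, trend, weights and threshold, and 3 to 4 when single libraries were left out. Over all genes, 1019 were called, 752 to 1042 when single libraries were left out, 731 with a filter of 5 TPM and 2183 with adjusted p alone. With CD8 replicates 1 and 2 averaged, chosen after seeing the data, 4 members and 809 genes were called. Cxcl10 changed sign with median-of-ratios rescaling (-0.0396) and quantile normalization (-0.0521). These moved the median of all genes from 0.28 to 2.8e-05 and -0.02. The further ligands called numbered 1, and became 2 with no filter, with Ccl19 added, and 0 with median-of-ratios rescaling and with quantile normalization. They ranged from 0 to 1 when single libraries were left out, and without CD4 replicate 3 the 1 called was Ccl6, not Ccl25. Of the receptors 1 was called, 1 whichever library was left out, and 2 with library weights, with Ccr1 added. The cause of these changes was not tested. Ccl8 was not fitted with the 5 TPM filter or without CD4 replicate 1, CD4 replicate 2 or CD8 replicate 3, where it failed the filter. Deviations of same-numbered libraries correlated at 0.05, -0.02 and 0.09, so the numbers were not taken as pairs. With the replicate block, 4 members, 1 further ligand and 1 receptor were called, and 997 genes in all. Sequencing depth is unknown, so the precision of levels near 0 cannot be given.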

Other observations

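Grk6, a kinase that acts on activated chemokine receptors, was named here after its values were seen. It stood at 291.4, 21.9 and 2.97 TPM in CD4SP and at 268.5, 4.60 and 255.1 TPM in CD8SP replicates 1 to 3. Both populations thus held libraries above 250 TPM and below 25 TPM, and it was not called (log2 fold change -1.29, SE 1.78, limma adjusted p = 0.628). Ccl17 and Ccl22, ligands of Ccr4 that failed the filter, were listed above 0 in CD4SP libraries only. The same held for Ccl12, Ccl19, Ccl20, Ccl28, Cxcl3 and Cx3cl1, which also failed it, so the listing was not particular to Ccr4 ligands. The CD4SP libraries listed 10329 to 10649 genes at 1 TPM or more, against 9971 to 10149 in CD8SP libraries. The share of all genes listed above 0 only in CD4SP was not taken, so no trait of chemokine ligands can be read from this. Ccl19 stood at 1.44, 1.59 and 0.471 TPM in CD4 replicates 1 to 3. Ccl17 stood at 0, 3.65 and 0.868 TPM and Ccl22 at 0.427, 0 and 0.653 TPM in CD4 replicates 1 to 3, and both were at 0 in the 3 CD8SP libraries.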
